A study of Mus musculus with 8 samples.

Results

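The unplaced mouse contig chrUn_JH584304 (build mm10) is a piece of assembled sequence that has not been assigned to a chromosome. Every called N6-methyladenine site on it, in each of 4 deposited lists, was taken, which gave 744 of the 17418 sites in all. The contig had been chosen because it is rich in sites and in satellite sequence, so its number of sites is a description and is not tested. The 744 calls fall on 519 different bases, of which 513 lie in 1 repeat array of 45.4 kb (chrUn_JH584304:68522-113947).

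The study immunoprecipitated chromatin without crosslinking, using a customized antibody to the histone variant H2A.X, and sequenced the DNA on single molecules (SMRT sequencing). The cells were TT2 embryonic stem (ES) cells of C57BL6 x CBA background at passage 5 to 10, grown without feeder cells, either wild type (WT) or Alkbh1 KO. Long DNA (L) and short DNA (S) were sequenced apart, which gives 4 groups of 2 labelled replicates: WT L, WT S, KO L and KO S. Runs of 4 values below that name no list are in the order of long then short DNA, WT before KO in each. Both replicates of a group share 1 list, and the protocol mentions a repeat of the sequencing, so the replicates cannot be separated and may be technical. With 1 list for each group, no test between groups was possible, and the intervals below cover counting error only. They treat sites as independent, which sites of a tandem repeat are not. A list of modified bases carries no expression values, so neither the cell type nor the loss of Alkbh1 could be checked, and the labels do not say how many clones carried the KO.

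Mouse major satellite is a tandem repeat that fills the heterochromatin beside the centromeres. It is rich in A and T, its unit is built from shorter related segments, and most of its copies are missing from the assembled genome or sit on unplaced contigs. In SMRT sequencing a polymerase copies a single DNA molecule, and the time between 2 incorporated bases (the inter-pulse duration, IPD) can lengthen at a modified template base. The IPD ratio sets the observed duration against a predicted one for the same sequence, so a value above 1 is slower than predicted. ALKBH1 has been described as a demethylase of N6-methyladenine, and H2A.X is known for its phosphorylation around DNA breaks.

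The repeat unit is shown first because every result below is read against it. It was rebuilt from the 41-base contexts that the lists give around each call, and it is 234 bases long, the length known for mouse major satellite. Of the lengths from 100 to 399 bases, it was the one at which most pairs of called bases of 1 strand stood 1 to 4 whole lengths apart (134 pairs, ahead of 97 for 117 bases). It is written along the minus strand of the contig and starts at its only GGACC, which sets position 1. Capitals mark the 10 adenines called most often. A capital T stands opposite an adenine called on the other strand.
Rebuilt unit: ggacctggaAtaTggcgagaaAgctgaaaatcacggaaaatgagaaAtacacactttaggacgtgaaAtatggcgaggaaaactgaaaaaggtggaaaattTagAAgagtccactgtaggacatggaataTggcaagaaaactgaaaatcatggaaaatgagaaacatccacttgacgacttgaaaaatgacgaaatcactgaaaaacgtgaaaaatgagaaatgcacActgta

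The unit holds 105 A, 32 C, 56 G and 41 T, so 71.9% of the adenines of its double strand are on the strand as written. Shifted by 58 bases against itself it matched at 59.4% of positions, the best of all shifts tried, and at 116 bases it matched at 53.0%. This internal repetition and the unit length fit the label of a major satellite array. Between 18 and 124 bases of the contig support each position. The majority letter held a median of 96.8% and at least 50.6% of them, with 37 positions under 85%, so the printed unit is a majority of differing copies.

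The longest stretch of the contig that the contexts cover without a gap shows how calls sit in the real sequence. It is the minus strand of chrUn_JH584304:75986-76135 (mm10), 150 bases, with 4 capitals on the minus-strand adenines called there.
Longest covered stretch: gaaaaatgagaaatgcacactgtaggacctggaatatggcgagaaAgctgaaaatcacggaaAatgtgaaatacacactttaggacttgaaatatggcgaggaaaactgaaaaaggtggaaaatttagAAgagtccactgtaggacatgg

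In that stretch the adenine at 76007 on the minus strand (unit position 105) was called in the 4 lists. In long DNA its IPD ratio was 1.98 for WT and 1.88 for KO, and in short DNA 2.15 for WT and 1.88 for KO, at coverage of 100, 160, 144 and 78. The next adenine, at 76006 (position 106), was called in KO L with an IPD ratio of 2.42 and in WT S with 2.31. The other 4 calls of the stretch, 2 on each strand, came from WT S alone. The gap between a base found in every list and bases found in 1 list thus appears within 150 bases.

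The same context recurred along the array, and the 3 that recurred at the most bases are shown with the called adenine in capitals.
Position 105: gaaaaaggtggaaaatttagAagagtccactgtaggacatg
Position 106: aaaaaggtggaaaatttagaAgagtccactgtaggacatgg
Position 22: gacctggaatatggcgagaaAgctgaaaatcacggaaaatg

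The context of position 105 was called at 26 bases of the contig, with 22 calls (WT) and 14 (KO) in long DNA and 15 (WT) and 13 (KO) in short DNA. The context of position 106 was called at 22 bases, with 5, 7, 13 and 6 calls in the same order. That of position 22 was called at 19 bases, with 5, 5, 9 and 6 calls. None of the 3 was called anywhere outside the contig. Their central 13 bases were also in no context outside it, so no uncalled copy was visible there either. In all, the 513 array bases have 273 different contexts, and 89 of these serve 335 bases. How reads were assigned among such near-identical copies is not given in the sources used here, and its part in the results was not tested.

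Sites were found on the contig in every list. WT L had 185 of 3862 (4.79%, 95% Clopper-Pearson interval 4.14 to 5.51), and KO L had 160 of 3044 (5.26%, 4.49 to 6.11). WT S had 250 of 7142 (3.50%, 3.09 to 3.95), and KO S had 149 of 3370 (4.42%, 3.75 to 5.17). The intervals of the L lists overlap, as do those of KO L and KO S, while those of WT L and WT S do not.

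Calls lay along the whole array. In the 9 full windows of 5 kb from its first called base, the 4 lists together gave 89, 104, 132, 57, 66, 54, 86, 81 and 68 calls. Median coverage of the calls in these windows was 74, 69.5, 115, 59, 62, 37, 74, 62 and 60. The window with most calls was the one with the highest coverage at its calls, and the window with fewest calls was the one with the lowest. Coverage at bases without a call is not listed, so calls per covered adenine could not be computed.

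**Figure D1:**
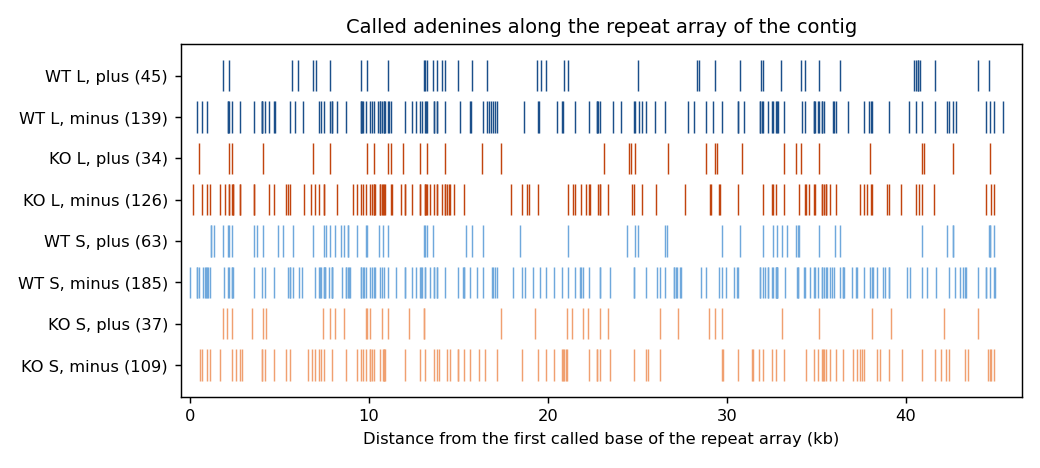
Called adenines along the repeat array, by list and strand. The x axis is the distance in kb from the first called base of the array, each vertical line is 1 call, and the number of calls stands in parentheses. Minus-strand rows are denser than plus-strand rows in every list, and no long stretch of the array is free of calls in all lists.

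Most calls were on the minus strand, which carries the written strand of the unit. WT L had 45 plus and 140 minus calls (75.7% minus, 68.8 to 81.7), and KO L had 34 and 126 (78.8%, 71.6 to 84.8). WT S had 64 and 186 (74.4%, 68.5 to 79.7), and KO S had 39 and 110 (73.8%, 66.0 to 80.7). The 4 intervals overlap. Outside the contig 50.1% of the sites were on the minus strand (49.4 to 50.9).

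The strand share can be set against the adenines on offer. The contexts cover 14937 bases of the array (32.9%) in 297 runs, with no conflict between overlapping contexts. They hold 6474 adenines on the minus strand and 2910 on the plus strand, so 69.0% were on the minus strand. Of the 513 different called bases, 379 were on the minus strand (73.9%, 69.8 to 77.6). Called bases made up 5.85% of the minus-strand adenines and 4.605% of the plus-strand adenines, against 5.47% of all 9384. The interval of the minus share of called bases lies just above the minus share of these adenines, and far above an equal split. These adenines are only those within 20 bases of a call. In the rebuilt unit, written along the minus strand, 71.9% of adenines are on that strand, which lies inside the interval. Whether the strand was called beyond its share of adenines was not tested.

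Spacing was measured between calls of 1 strand and list up to 2000 bases apart. Exact multiples of the unit length made up 32 of 950 pairs for WT L (3.37%), 30 of 870 for KO L (3.45%), then 48 of 1733 for WT S (2.77%) and 20 of 578 for KO S (3.46%). If distances were spread evenly over the unit, 0.427% would be exact multiples. Within 2 bases of a multiple lay 14.7%, 13.7%, 10.4% and 12.5% of the pairs, where an even spread gives 2.14%. The share was above an even spread in every list. The unit length had been picked from the joined lists as the one with most such pairs, so this excess is a description and no test of the period. On the minus strand, with bases of all lists joined, 25 pairs were exactly 1 unit apart, 46 were 2 units, 31 were 3 units, 11 were 4 units and 22 were 5 units apart. Another 45 minus-strand pairs were neighbouring bases.

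Position in the unit was read by matching each context to the rebuilt unit, since coordinates alone lose the phase: the 10 most used remainders after division by the unit length held 13.96% of the 738 array calls. At least 33 of 41 bases had to match, which placed 716 of the 738 calls, with a median of 39 matching bases and 164 identical contexts. All 549 placed minus-strand calls matched the written strand and all 167 plus-strand calls matched the other, so the placed copies run in 1 orientation. Of the placed calls, 698 (97.5%) fell on an adenine of the rebuilt unit. Of its 146 adenines on both strands, 65 were called at least once.

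Calls gathered on few of these adenines. The 10 most called combinations of position and strand held 462 of 716 placed calls (64.5%, 60.9 to 68.0). By list the share was 61.5% for WT and 66.9% for KO in long DNA, and 60.4% for WT and 72.7% for KO in short DNA. These 10 were chosen by their calls, so the share is a description.

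**Figure D2:**
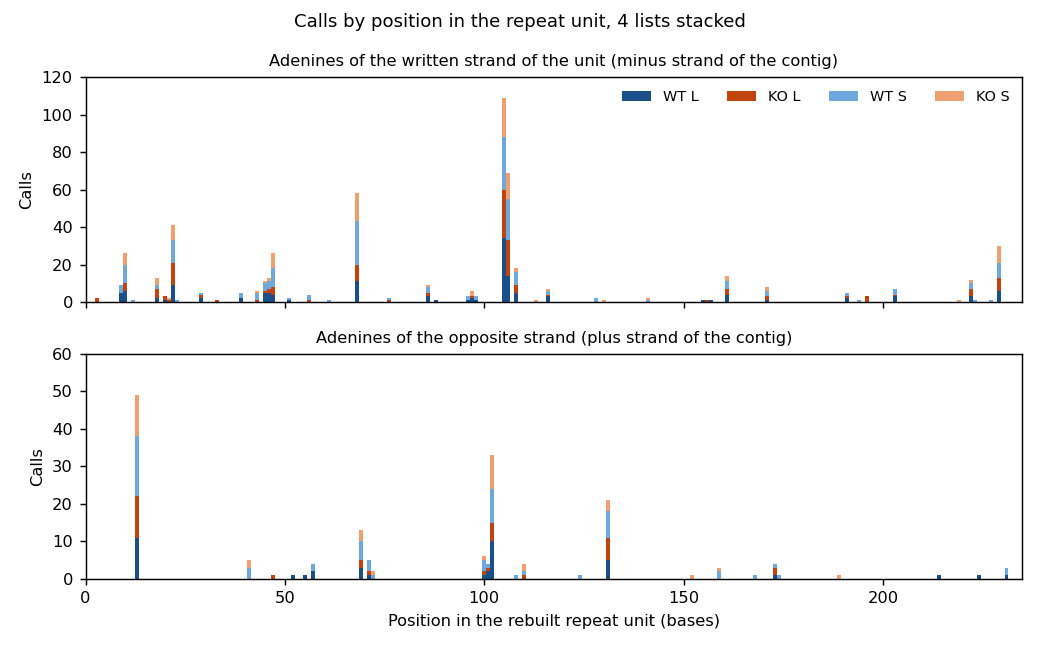
Calls on the contig by position in the rebuilt repeat unit, stacked over the 4 lists, with adenines of the written strand above and of the opposite strand below. The x axis is the position in bases and the y axis counts calls. The tallest column is at position 105 of the written strand with 109 calls, and every list contributes to each of the 10 tallest columns.

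Position 105 led with 109 calls at 56 bases, of which WT L gave 34, KO L gave 26, WT S gave 28 and KO S gave 21. Its median IPD ratio was 2.06, 2.04, 2.09 and 2.13 in those lists, and its median modified fraction over the lists was 26.1%. The modified fraction is the authors' estimate of the share of molecules carrying the modification at that base, and it was deposited only at coverage of 11 or more. The neighbouring position 106 had 69 calls at 43 bases (14, 19, 22 and 14), with a higher median IPD ratio of 2.36 and a fraction of 40.8%.

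Position 68 had 58 calls at 40 bases (11, 9, 23 and 15). Its median IPD ratio of 1.84 was low for the 10, while its fraction of 60.8% was the second highest of them. Position 10 lies 58 bases before it and had 26 calls at 14 bases, with an IPD ratio of 2.09 and a fraction of 52.0%. In the rebuilt unit both adenines sit in the same letters, aAtatggc, 1 internal segment apart. Positions 47 (26 calls, IPD ratio 2.60, fraction 58.5%) and 105 are also 58 bases apart, but their surroundings in the printed unit differ.

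On the opposite strand, position 13 had 49 calls at 25 bases (11, 11, 16 and 11), with the highest IPD ratio of the 10 at a median of 2.64 and the highest fraction at 72.2%. Position 131, also on the opposite strand, had 21 calls at 13 bases with 2.20 and 60.2%. Position 102 of the same strand had the lowest values, an IPD ratio of 1.49 and a fraction of 14% over 33 calls at 28 bases, at the highest median coverage of the 10 (98). On the written strand, positions 22 (41 calls) and 229 (30 calls) had ratios of 1.95 and 1.98 and fractions of 19.1% and 24.6%. IPD ratio and fraction thus do not rank the 10 positions alike.

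Copies of the unit differ in sequence, and which copies were called differed with the letters next to the adenine. The most common surroundings of position 105 on the contig are shown as 13-base windows on the written strand, with the adenine of position 105 in capitals, because called and uncalled copies differ there.
Window 105a: atttagAagagtc
Window 105b: ttttagAagagtc
Window 105c: atttagAagcgtc
Window 105d: atttagAaatgtc
Window 105e: attcagAaatgtc

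Window 105a was visible in 39 copies and called in 34, with a median IPD ratio of 2.05 (1.56 to 2.88) over 75 calls. Window 105b was called in 10 of 10 copies and window 105c in 5 of 5. Window 105d was called in 0 of 15 and window 105e in 0 of 5. Grouped by the letter 2 bases after the adenine, 56 of 63 copies with a G were called (88.9%) and 0 of 29 with an A. The letter 3 bases after it split the copies alike, with 51 of 58 called for A, 5 of 5 for C and 0 of 29 for T. These letters change together, so the contrast cannot be assigned to either. A copy is visible only within 20 bases of a call in some list, so a called copy is always counted and an uncalled one only when a neighbour was called. Counting only copies made visible by a call at another base, 38 of 45 with a G were called (84.4%) and 0 of 29 with an A. Counting only those reached by a call from outside the 13 bases, the numbers were 3 of 3 and 0 of 12. The contrast kept its direction under the 3 ways of counting, though the last rests on few copies. Of all array adenines within 20 bases of a call, 5.47% were called, and the share over the whole array is not known.

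Positions 106 and 22 showed the same kind of contrast. At position 106, 42 of 63 copies with a G as the next base were called and 1 of 29 with an A. Counting copies reached by a call at another base alone, the numbers were 36 of 57 and 0 of 28. These are largely the copies just described, since the letter is the same one, and it changes together with the letter after it.
Window 22a: cgagaaAgctgaa
Window 22b: cgagaaAactgaa
Window 22c: ccagaaAgctgaa
Window 22a was called in 23 of 27 visible copies, window 22b in 0 of 19 and window 22c in 0 of 9. By the next base, 27 of 43 copies with a G were called (62.8%) and 1 of 30 with an A (3.33%). With copies reached by a call at another base alone, the counts were 10 of 26 (38.5%) and 0 of 29, and from outside the window 2 of 13 (15.4%) and 0 of 28. The 9 copies of window 22c also have a G as the next base, and all were reached from outside the window, so each G count holds them. Window 22a alone was called in 9 of 13 copies reached by a call at another base and in 1 of 2 from outside. The lower shares at G thus mix the way of counting with a window that was never called, and a G alone did not go with a call. The share at A stayed at or near 0.

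At position 13 of the opposite strand the most common window was never called. The windows are on the written strand, and the capital T lies opposite the called adenine.
Window 13a: ggaataTggcgag
Window 13b: gcattaTggccag
Window 13c: ggattaTggcgag
Window 13d: ggaatgTggcgag
Window 13a was visible in 29 copies, all through a call at another base, and called in 0. Window 13b was called in 9 copies with a median IPD ratio of 3.41 at a median coverage of 32, and in 6 of 6 copies reached by a call at another base. From outside the window 25 copies of 13a were reached and 0 of 13b, so that way of counting gives no called share for 13b. Windows 13c (7 copies) and 13d (4 copies) were visible only through their own call, so they give no called share. Their median IPD ratios were 1.91 at a coverage of 92.5 and 2.39 at 70.5.

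At 3 more positions the called share depended on how copies became visible to different degrees, and their common windows are shown for that reason.
Window 47a: tgagaaAtacaaa
Window 47b: tgagaaAtacaca
Window 68a: cgtgaaAtatggc
Window 68b: cttgaaAtatggc
Window 102a: aaaattTagaaga
Window 102b: aaaattTagaaat
Window 47a was called in 14 of 14 visible copies with a median IPD ratio of 2.71, and window 47b, the form in the rebuilt unit, in 1 of 11. Through calls at another base the numbers were 4 of 4 and 0 of 10. Window 68a was called in 21 of 23 copies and window 68b in 4 of 14. Most copies of 68a were visible through their own call alone, and through calls at another base the numbers were 1 of 3 and 2 of 12, too few to set apart. At position 102 of the opposite strand, window 102a was called in 13 of 46 copies and window 102b in 14 of 19. Through calls at another base the numbers were 13 of 46 and 6 of 11, and from outside the window 2 of 3 and 0 of 2, which turns the order on very few copies. The windows were picked after seeing which copies were called, and no test of these contrasts was made.

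IPD ratios on the contig were lower than elsewhere. In long DNA the median was 1.98 for WT (1.91 to 2.05, range 1.34 to 5.93) and 2.05 for KO (1.99 to 2.12, range 1.39 to 4.27). In short DNA it was 2.02 for WT (1.95 to 2.09, range 1.33 to 6.04) and 2.03 for KO (1.98 to 2.13, range 1.39 to 6.36). The intervals of the 4 lists overlap. Outside the contig the medians were 2.60, 2.60, 2.59 and 2.69. The modified fraction had medians of 31.0% for WT L (182 calls with a fraction), 33.5% for KO L (158), 34.8% for WT S (246) and 37.5% for KO S (144), against 69.9%, 65.3%, 69.9% and 73.8% outside.

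Coverage, the number of passes or reads at the base, was higher on the contig. Its median was 65 for WT and 65 for KO in long DNA, and 78.5 for WT and 62 for KO in short DNA, with highest values of 228, 237, 427 and 303. Outside the contig the medians were 10, 10, 14 and 11. Since IPD ratio, fraction and coverage all differ, the ratios were also set side by side at like coverage. Under 25, the median IPD ratio was 2.85 on the contig (77 calls) and 2.72 elsewhere (14614). From 25 to under 50 it was 2.18 (176) and 2.08 (1265), from 50 to under 100 it was 1.97 (274) and 1.76 (218), and from 100 it was 1.87 (217) and 1.57 (577). From a coverage of 50 the contig median was above the rest in each list, the opposite of the order of the overall medians. Below that the lists differed: under 25 the contig was lower for WT L (2.45 against 2.68) and KO L (2.63 against 2.70) and higher for WT S (3.00 against 2.72) and KO S (3.32 against 2.80). From 25 to under 50 it was 2.10 on both sides for WT L and higher on the contig in the other lists.

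The modified fraction in the same bins was 73.7%, 44.2%, 33.2% and 23.3% on the contig and 77.9%, 48.5%, 30.3% and 20.9% elsewhere. In each list it was lower on the contig from 25 to under 50 and higher from 100. In the other bins the lists differed in direction: under 25 it was higher on the contig for KO L (74.9% against 73.2%) and WT S (79.1% against 78.1%). From 50 to under 100 it was lower on the contig for WT L (28.6% against 30.4%) and KO S (34.2% against 34.4%). The lists hold only calls with a score of 20 or more. With the lists joined, both IPD ratio and fraction were lower in each bin of higher coverage. On the contig the IPD ratio of WT L did not follow this, with 1.88 from 50 to under 100 and 1.94 from 100.

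**Figure D3:**
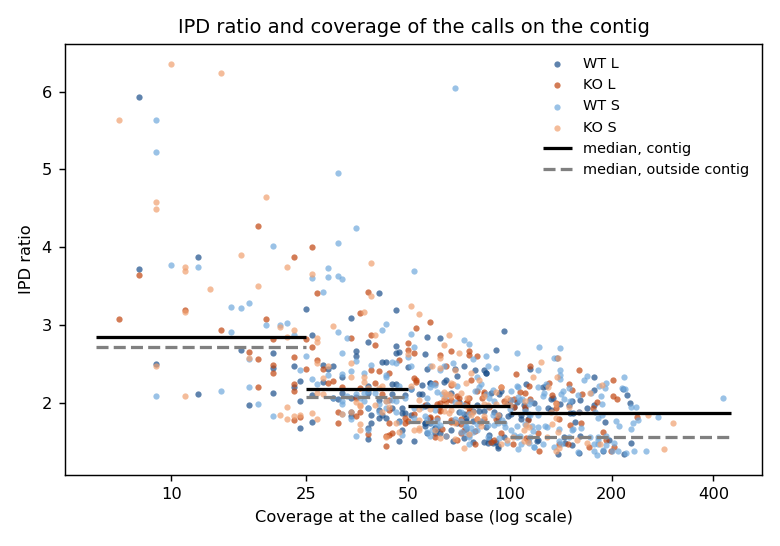
IPD ratio against coverage (log scale) for the 744 calls on the contig, 1 point per call, colored by list. Solid lines give the contig medians and dashed lines the medians outside it in bins of coverage, which go down from 2.85 and 2.72 under a coverage of 25 to 1.87 and 1.57 from 100.

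The caller's scores followed coverage too. The median score was 33, 35, 35 and 32 on the contig, against 24 in each list outside it. An identification score of 20 or more, the caller's measure that the signal is N6-methyladenine, was reached by 62 (33.5%), 69 (43.1%), 115 (46.0%) and 51 (34.2%) of the contig sites. Outside the contig the shares were 10.8%, 11.6%, 15.1% and 13.6%. With the lists joined it was 39.9% on the contig, and 39.2%, 62.7% and 74.3% in satellite regions of chromosomes 9, 14 and 2 described below. In the coverage bins used above, the median identification score was 9, 11, 17 and 26 on the contig and 7, 10, 13 and 35 outside it. From a coverage of 100 it was thus lower on the contig. A G followed the called adenine in 26.5%, 38.1%, 28.8% and 26.2% of the contig sites, and in 20.4%, 19.2%, 18.7% and 19.3% of the other adenines of the same contexts.

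The highest scores of the contig lay on the 2 neighbouring positions printed above in 10 of 12 cases. In WT L they were 104 at 78110 on the minus strand (position 105), 100 at 78109 (106) and 100 at 82318 (105). In KO L they were 104 at 76006 (106), 104 at 81382 (106) and 98 at 81383 (105). In WT S they were 130 at 78695 (position 222), 124 at 78109 and 115 at 78110. In KO S they were 104 at 78577 (106), 84 at 87789 on the plus strand (opposite strand, position 13) and 83 at 103826 (105).

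The extremes of the IPD ratio were of another kind. The highest were 6.36 at 36859, outside the array, 6.24 at 101581 (opposite strand, position 13) with a coverage of 14, both in KO S, and 6.04 at 77340 (opposite strand, position 174) in WT S with a coverage of 69. The lowest were 1.33 at 82089 in WT S and 1.34 at 78119 and 109208 in WT L, with coverage of 181, 218 and 139. So 2 of the 3 highest ratios came from shallow bases, and the 3 lowest came from deep ones.

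Bases recurred between lists. Of the 519 bases, 367 (70.7%) were called in 1 list, 98 (18.9%) in 2, 35 (6.74%) in 3 and 19 (3.66%) in 4. Position 105 held 7 of the 19, out of its 56 called bases, and position 13 of the opposite strand held 4 of its 25. Positions 68, 222 and 229 held 2 each, and positions 106 and 22 held 1 each. Position 222 had 5 called bases in all.

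The base with the highest summed score was 78110 on the minus strand (position 105). In long DNA its IPD ratio was 2.10 for WT and 2.01 for KO, and in short DNA 2.18 for WT and 2.33 for KO, at coverage of 222, 181, 219 and 138. The base 69465 (105) gave 1.98, 2.05, 2.26 and 1.95, and 78695 (222) gave 2.04, 1.82, 2.06 and 1.84 at coverage of 161, 237, 427 and 257. At these 3 bases the lists differed little and in no common order of genotype. In WT the ratio was higher in S than in L at each of the 3, while in KO the order of the parts differed between them.

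On the plus strand, 103684 (opposite strand, position 13) gave IPD ratios of 2.73, 2.96, 3 and 3.8. The base 76333 of the same position gave 2.44, 4.27, 3.77 and 5.64, and its coverage was 57, 18, 10 and 7. There the ratio was highest where coverage was lowest. The base 79605, also at position 13, gave 3.41, 2.75, 2.07 and 3.24 at coverage of 41, 40, 36 and 51, so the order of the lists was not shared by these 3 bases.

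**Figure D4:**
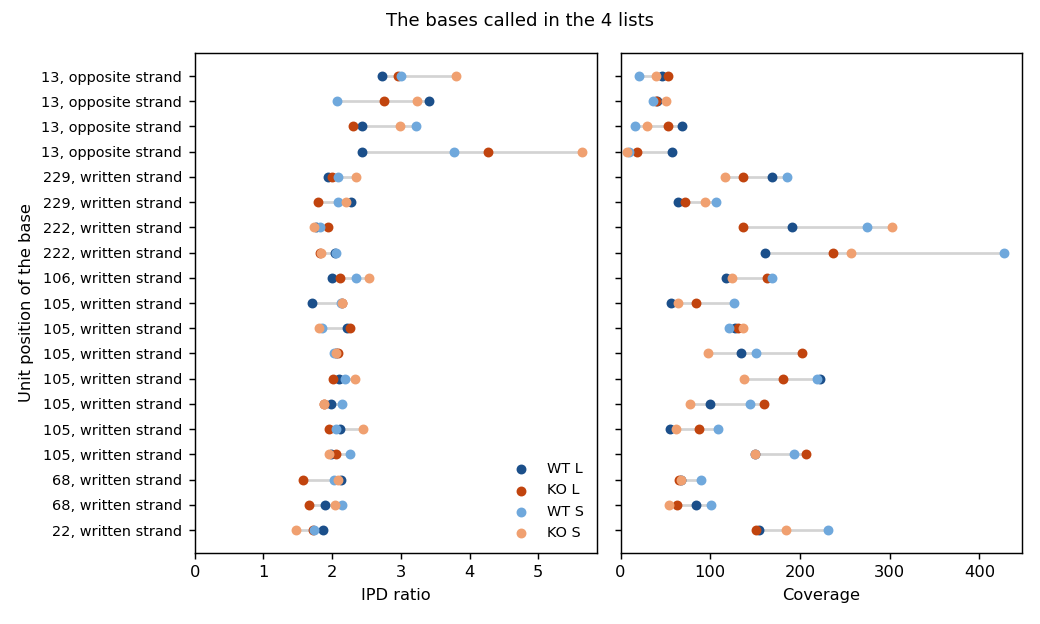
IPD ratio (left) and coverage (right) at the 19 bases of the contig called in the 4 lists. Each row is a base, named by its unit position and strand, and each point is 1 list. Rows of position 13 spread between 2.07 and 5.64 in IPD ratio at low coverage, while most written-strand rows stay near 2.

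Between genotypes, 54 of the 160 KO L sites on the contig were called in WT L at the same base and strand (33.8%, 26.5 to 41.6), which is 29.2% of the WT L sites there. Over all sites of the KO L list the share was 4.63%, and outside the contig it was 87 of 2884 (3.02%). In S, 49 of 149 KO sites were called in WT (32.9%, 25.4 to 41.05), or 19.6% of the WT S sites, against 4.78% over the whole list and 3.48% outside the contig. In long and in short DNA, the lower bound on the contig was thus several times the share outside it. Other satellite regions, described below, had shares near or above that of the contig in L and above it in S.

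Between DNA parts, 73 of 250 WT S sites recurred in WT L (29.2%, 23.6 to 35.3), or 39.5% of the WT L sites, against 2.38% over the whole WT S list. In KO, 40 of 149 S sites were called in L (26.8%, 19.9 to 34.7), or 25% of the KO L sites, against 3.56%. The 4 shares on the contig had overlapping intervals. Coverage at the calls was several times that of other sites in every list, and its part in the recurrence was not tested.

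At bases called in both genotypes the IPD ratio was close to equal at the median, while single bases differed more. The KO to WT quotient of single bases ran from 0.646 to 1.77 in L and from 0.595 to 1.93 in S. In L the median of the KO to WT quotient was 0.993 (0.924 to 1.06), and KO was higher at 27 of 54 bases, where 48.2% of all bases shared by the L lists were higher in KO. In S the median was 1.02 (0.949 to 1.08), with KO higher at 27 of 49 bases against 58.4% of all shared bases. The modified fraction, KO minus WT, differed by -0.4 percentage points in long DNA (-2.8 to 6.2) and by 0.75 points (-5.6 to 5.7) in short DNA. These intervals all include no difference, and they leave room for differences of several percent in either direction. The KO to WT quotient of coverage was 0.920 (0.795 to 1.02) in long DNA, and 0.668 (0.605 to 0.801) in short DNA.

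At bases called in both parts, a set limited in the same way, the picture was alike in WT. The S to L quotient of the IPD ratio was 0.980 (0.941 to 1.05), with S higher at 33 of 73 bases against 42.9% of all shared bases, at a coverage quotient of 1.33 (1.19 to 1.46). In KO the quotient was 1.14 (0.995 to 1.23), with S higher at 24 of 40 bases against 65% of all shared bases. The fraction was 6.6 points higher in S in KO (0.2 to 10.3), at a coverage quotient of 0.830 (0.725 to 1.03). The count of 24 of 40 is near the share over all shared bases, and whether the KO and WT quotients differ was not tested.

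Other satellite regions differ from the contig in which adenines were called. The start of chromosome 9 (9:3000135-3038205 from first to last site) held 521 sites, an island on chromosome 14 (14:19415767-19419591) held 217 and an island on chromosome 2 (2:98662211-98667176) held 113. By matching to the same unit, the 10 positions most called on the contig held 37.8% of 505 placed calls on chromosome 9 (33.6 to 42.2), 29.1% of 196 on chromosome 14 (22.8 to 35.98) and 16.2% of 68 on chromosome 2 (8.36 to 27.1). The positions were chosen on the contig, so its own 64.5% cannot be set against these as a test.

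Single positions show the contrast. Position 105 took 15.2% of the placed calls on the contig, 0.198% (1 call) on chromosome 9 and none on the chromosome 14 and chromosome 2 islands. Position 102 of the opposite strand took 4.61% on the contig and 12.9%, 7.65% and 7.35% in the 3 regions. Position 68 took 8.10%, 7.92%, 5.10% and 5.88%, so it was called in like shares on the contig and on chromosome 9. The copies differ in sequence: window 105d was visible in 47 copies on chromosome 9, of which 1 was called, and window 105a was in no context outside the contig. Window 102b, in turn, was called in 40 of its 53 visible copies on chromosome 9, in 20 of 33 reached by a call at another base and in 5 of 9 reached from outside the window.

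**Figure D5:**
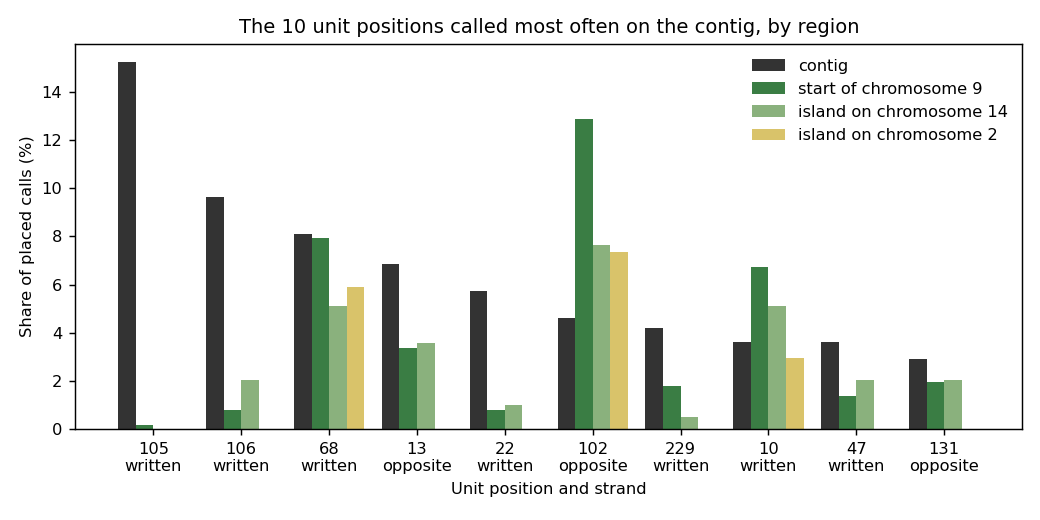
Share of placed calls (%) at the 10 unit positions called most often on the contig, for the contig and 3 other satellite regions, all lists together. Position 105 stands at 15.2% on the contig and at 0.198% at the start of chromosome 9, while position 102 of the opposite strand is higher at 12.9% on chromosome 9 than at 4.61% on the contig.

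The other regions also differed in level and depth. The median IPD ratio over the lists was 2.02 on the contig, 1.75 on chromosome 9, 1.7 on chromosome 14 and 1.5 on chromosome 2, and median coverage was 67, 92, 277 and 1073. The order of the ratios is the reverse of the order of coverage. KO L sites called in WT L were 28.4% on chromosome 9, 61.2% on chromosome 14 and 54.3% on chromosome 2, which are 32.0%, 54.5% and 79.2% of the WT L sites there. The contig, at 33.8%, lay near chromosome 9 in this and below the deeper islands. KO S sites called in WT S were 39.2%, 68.0% and 73.1% in the same order of regions, and 32.9% on the contig. Minus-strand calls made up 67.2% on chromosome 9, 37.8% on chromosome 14 and 41.6% on chromosome 2. Read against the unit, however, the written strand took 67.1%, 63.3% and 60.3% of the placed calls there and 76.7% on the contig. That strand holds 71.9% of the adenines of the rebuilt unit. Its share of calls was below this in the other regions and above it on the contig, which was not tested. Calls count a base once for each list. Of the different called bases of the array, 73.9% (69.8 to 77.6) were on the minus strand, an interval that holds 71.9%. The unit was rebuilt from the contig, so 71.9% need not be the adenine share of copies in the other regions.

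Contexts were seldom shared with these regions. Only 18 contig bases had a 41-base context that was also called elsewhere, in 63 calls, of which 41 were on chromosome 9, 10 on chromosome 14, 9 on chromosome 2 and 3 on chromosome 12.

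The remaining 6 calls lay outside the array, the nearest of them 12966 bases before its first called base. Their best match to the unit was 18 to 22 of 41 bases, below the 33 needed to be placed on it. WT L had 14066 (minus, IPD ratio 2.28, coverage 24). WT S had 25365 (minus, 5.64, coverage 9) and 37690 (plus, 2.09, coverage 9). KO S had 9638 (minus, 3.17, coverage 11), 36859 (plus, 6.36, coverage 10) and 55556 (plus, 4.49, coverage 9). None was called in a second list, and each had coverage below the contig median of its list. No gene annotation of the contig was used here, so whether any site lies in a gene is not stated.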

How the data were processed

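Native H2A.X immunoprecipitates were sequenced on single molecules, and the authors deposited 1 list of called adenines for each group, with both labelled replicates in it. The build is mm10, per the submitters' processing notes. For the aligner, caller version, filters and pooling of replicates, the state is: not given in the sources used here. The deposited score of each call has a minimum of 20 and no stated scale. Coverage, as deposited, is a signal that was not normalized. The authors' IPD ratio is linear, and their deposited fraction is listed at coverage of 11 or more.

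Values were used unfiltered (Python 3.11.15, numpy 2.4.6, pandas 2.3.3, scipy 1.17.1, matplotlib 3.10.9). The array began after the last gap over 5000 bases. The unit was rebuilt from 15 starting places and tested on simulated repeats, and contexts with 33 or more of 41 identical bases were placed. Shares have Clopper-Pearson intervals and medians have order-statistic intervals, both at 95%. The contig, positions and regions were chosen with earlier results of these data known. Named were the 10 most called unit positions, up to 15 bases in the 4 lists by summed score, the 3 highest scores of each list and the 3 highest and 3 lowest IPD ratios; 13-base windows and the bases of the longest covered stretch were picked after seeing the data. Alternatives were stricter score (30), coverage (25) and identification score (20), 1 base of tolerance between lists, 2 bases in spacing, and, chosen after seeing the data, 30 or 37 identical bases and other ways of counting copies.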

Additional observations from a re-analysis of the deposited data

How the results depend on the processing

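Of 74 alternatives, 47 kept the value within its 95% interval (counts within 1.5 times) and 27 moved it. The KO to WT quotient of the IPD ratio in S passed from 1.02 to 0.992 at a coverage of 25 or more, within its interval on both sides of 1. Sites on the contig went to 113, 100, 160 and 89 (WT L, KO L, WT S, KO S) at a score of 30 or more and to 62, 69, 115 and 51 at an identification score of 20 or more, where KO L had more than WT L, the reverse of the full lists, and where the plus-strand share of WT S was 18.3%. The median IPD ratio went to 2.06 in WT L and 2.12 in WT S at a score of 30 or more, and to 2.13 in KO L at an identification score of 20 or more. Allowing 1 base between lists, 43.8% of KO sites were called in WT in L and 45.6% in S, and 35.6% of WT S sites in WT L. The 10 leading positions held 13.96% of calls by remainder and 64.5% by matching the context, 64.3% with 30 and 64.5% with 37 identical bases (both chosen after seeing the data). Pairs within 2 bases of a unit multiple made up 14.7%, 13.7%, 10.4% and 12.5%. No paired analysis was possible because both replicates of a group share 1 list, and for the same reason no replicate could be left out. Depth at uncalled bases is not listed, so calls per covered adenine are unknown.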
